A study of Mus musculus with 42 samples.

Results

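In mouse epiblast-like cells, 890 regions were bound by SOX2 in every library of wild-type cells without CHIR99021 and were absent from the best SOX2 peaks of every library of cells given it. They were chosen as follows. The 20000 best peaks of each of 12 SOX2 peak lists, by the authors' −log10 q, were joined wherever they overlapped by at least 1 bp, which gave 122617 regions. A region was taken when all 3 lists without CHIR99021 (noCHIR) had a peak in it and none of the 9 lists with CHIR99021 (CHIR) did. This was 0.726% of all joined regions and a part of the 8293 regions that had a peak in all 3 noCHIR lists. The other 7403 of the 8293, called kept regions here, had a peak in at least 1 CHIR list, and 1381 of them had one in all 9. The SOX2 calls chose the regions, so the difference in SOX2 calls between noCHIR and CHIR is described below without a test.

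The cells were of HM1 TetON, an XY mouse embryonic stem line of 129 strain, or mutant lines made from it. All were differentiated in bFGF with LGK974, which blocks the secretion of WNT ligands, and were fixed at 72 h. CHIR was either present over the final day or left out. Wild-type cells (WT) were profiled for SOX2 in both conditions, whereas cells mutant for Cdx1, Cdx2 and Cdx4 (CdxKO) and cells mutant for T/Bra (T/BraKO) were profiled with CHIR alone. β-catenin and LEF1 were profiled in the 3 genotypes with CHIR. Each of these 10 groups held 3 biological replicates, and 12 input samples were not analysed here. Each mutant genotype was a separate line, so genotype and line cannot be told apart, and the absence of CHIR was studied in WT alone. Each library was a bulk culture, in which a site bound in fewer cells and a site bound less strongly in each cell cannot be told apart.

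SOX2 is a high-mobility-group transcription factor of pluripotent and neural cells, and it often binds next to a partner factor that differs between cell types. In the formative epiblast such partners include the POU factor OCT4, the homeodomain factor OTX2 and the zinc finger factors of the ZIC family. Without WNT signalling the epiblast takes on anterior and neural character, and OTX2 is a central regulator of this anterior identity. CHIR99021 inhibits the kinase GSK3, which otherwise marks β-catenin for destruction. The stabilised β-catenin enters the nucleus and is brought to DNA by TCF and LEF factors such as LEF1, and in the embryo this pathway drives the caudal epiblast and primitive streak, where T/Bra and the CDX factors act.

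The DNA at the summits showed which short words lay where the SOX2 signal was highest. Each window below reaches 100 bp to each side of the summit of the best-ranked of the 3 noCHIR peaks, read on the plus strand of the mouse genome build mm10 (GRCm38). Capitals mark the word TAATCC, the core recognised by OTX2 and other bicoid-type homeodomain proteins, and the SOX words CCATTGT and CCTTTGT, each on either strand. The genes are the nearest protein-coding genes and serve as names only. The windows are those of the 6 best-ranked regions and of the best-ranked region near a gene of each of 6 gene lists described further on. The first 6 hold the OTX word, alone or with a SOX word.
Pnpt1, chr11:29062093-29062293: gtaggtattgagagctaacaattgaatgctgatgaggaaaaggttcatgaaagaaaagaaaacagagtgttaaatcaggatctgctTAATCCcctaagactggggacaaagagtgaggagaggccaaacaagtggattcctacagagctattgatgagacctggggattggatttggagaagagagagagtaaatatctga
Ntrk3, chr7:78099690-78099890: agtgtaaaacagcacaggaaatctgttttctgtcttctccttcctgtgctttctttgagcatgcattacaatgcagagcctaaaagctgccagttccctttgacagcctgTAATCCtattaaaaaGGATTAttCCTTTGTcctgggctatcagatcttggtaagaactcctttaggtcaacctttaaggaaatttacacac
Flrt2, chr12:94247632-94247832: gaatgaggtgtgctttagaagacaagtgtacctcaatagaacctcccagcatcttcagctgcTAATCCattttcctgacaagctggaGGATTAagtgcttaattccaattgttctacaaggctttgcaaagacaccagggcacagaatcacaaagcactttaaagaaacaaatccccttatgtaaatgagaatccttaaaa
Lifr, chr15:7088648-7088848: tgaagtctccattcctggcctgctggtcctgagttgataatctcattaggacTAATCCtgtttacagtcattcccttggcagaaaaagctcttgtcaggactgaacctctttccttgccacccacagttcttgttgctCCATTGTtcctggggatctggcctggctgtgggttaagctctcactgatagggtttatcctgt
Hesx1, chr14:27005918-27006118: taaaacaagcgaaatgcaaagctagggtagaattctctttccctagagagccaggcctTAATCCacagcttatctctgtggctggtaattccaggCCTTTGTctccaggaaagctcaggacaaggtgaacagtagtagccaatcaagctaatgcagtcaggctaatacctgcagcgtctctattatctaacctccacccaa
Sox11, chr12:27496863-27497063: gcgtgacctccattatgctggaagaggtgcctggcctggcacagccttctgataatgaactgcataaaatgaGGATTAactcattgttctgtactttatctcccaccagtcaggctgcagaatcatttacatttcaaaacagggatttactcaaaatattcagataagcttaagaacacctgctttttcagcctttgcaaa

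In the window near Ntrk3, which encodes the neurotrophin-3 receptor, a SOX word and 2 OTX words, 1 on each strand, stood on the same side of the summit. The window near Hesx1, which encodes a homeodomain repressor of the anterior neural plate, held 1 OTX and 1 SOX word, as did that near Lifr, the gene of the LIF receptor. The next 3 windows show regions with a SOX word and no OTX word.
Mon1b, chr8:113555139-113555339: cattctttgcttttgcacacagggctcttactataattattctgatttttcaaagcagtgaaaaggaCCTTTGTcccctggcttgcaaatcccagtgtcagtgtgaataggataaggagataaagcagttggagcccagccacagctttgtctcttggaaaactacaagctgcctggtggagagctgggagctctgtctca
Grhl2, chr15:37186231-37186431: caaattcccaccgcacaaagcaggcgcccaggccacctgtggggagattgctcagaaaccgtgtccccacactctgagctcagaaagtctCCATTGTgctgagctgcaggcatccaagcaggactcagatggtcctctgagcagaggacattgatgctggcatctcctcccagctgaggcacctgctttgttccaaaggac
Epha7, chr4:29119870-29120070: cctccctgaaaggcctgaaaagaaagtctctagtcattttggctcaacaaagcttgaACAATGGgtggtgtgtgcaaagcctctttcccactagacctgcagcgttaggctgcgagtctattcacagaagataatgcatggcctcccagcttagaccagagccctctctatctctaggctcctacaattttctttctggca

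The last 3 windows held neither word, which says only that these letters are not within 100 bp of the summit.
Clcn3, chr8:60939199-60939399: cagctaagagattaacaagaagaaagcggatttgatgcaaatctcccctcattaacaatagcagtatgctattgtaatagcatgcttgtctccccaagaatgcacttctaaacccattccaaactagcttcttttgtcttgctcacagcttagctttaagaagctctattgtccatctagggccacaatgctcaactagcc
Mrpl37, chr4:107052801-107053001: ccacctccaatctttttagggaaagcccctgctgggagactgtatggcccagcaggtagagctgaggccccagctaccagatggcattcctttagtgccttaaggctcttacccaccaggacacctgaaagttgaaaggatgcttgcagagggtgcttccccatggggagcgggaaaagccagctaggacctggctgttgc
Meis1, chr11:18748229-18748429: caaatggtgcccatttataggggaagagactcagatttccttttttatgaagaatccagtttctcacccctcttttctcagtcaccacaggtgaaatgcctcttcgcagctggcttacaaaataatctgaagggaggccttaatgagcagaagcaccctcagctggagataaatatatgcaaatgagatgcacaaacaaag

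Among regions in all 3 noCHIR lists, the 890 were on median weaker than those also held by CHIR lists. The mean rank of a region over the 3 lists, where 1 is the best peak, was 245.3 at the lowest, 8309 at the median and 18377 at the highest. Its median was 7769 for the regions in 1 CHIR list and 1837 for those in all 9. Their median fold enrichment over the local background, as the authors' peak caller gave it, was 10.0, 10.5 and 9.46 in noCHIR replicates 1, 2 and 3. The regions with a SOX2 peak in all 9 CHIR lists were stronger in each replicate, at 22.0, 21.0 and 18.4, and those with a peak in 1 to 8 CHIR lists stood at 12.2, 12.4 and 10.9. The 3 replicates placed the summit close together: in 492 of 890 regions (55.3%) the 3 summits lay within 50 bp of each other, with a median range of 46 bp against 38 bp in kept regions.

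The strongest region lay in an intron of Clcn3, which encodes an endosomal chloride transporter (chr8:60938956-60939723). Its fold enrichment was 45.7, 48.4 and 34.2 in the 3 noCHIR replicates. In the full CHIR lists it had a weak peak in T/BraKO replicates 1 and 2 alone, at 5.15 and 6.20, and the better of them was ranked 20126. The next region, 80348 bp from the start site of Mon1b, had 47.4, 37.1 and 43.4 in noCHIR and no peak of any rank in the 9 CHIR lists. Near Pnpt1, which encodes mitochondrial polynucleotide phosphorylase, the values were 39.7, 67.7 and 23.8, and a single CHIR peak of 5.32 was listed. The noCHIR replicates were far apart at this region, but each of their values lay above the CHIR value. The region near Ntrk3 had 46.5, 42.9 and 32.9 in noCHIR, with peaks of 4.37 and 4.73 in 2 CHIR libraries.

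Below these stood regions near Mrpl37, which encodes a mitochondrial ribosomal protein (34.1, 45.3 and 32.4), and Flrt2, a membrane protein of axon guidance (30.1, 35.8 and 33.5). Introns of Slc6a11, a GABA transporter gene, and of Chrm3, a muscarinic acetylcholine receptor gene, held the next ones together with a region upstream of Slc7a10, a neutral amino acid transporter gene. In these 3 regions the lowest noCHIR value was 14.7, in replicate 3 at Chrm3, and the highest CHIR value was 5.68, at Slc6a11. The last 3 of the 12 best-ranked regions lay near Sorcs1, Prex1 and Tal2. All 12 had a higher fold enrichment in every noCHIR library than in any CHIR library that listed them.

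**Figure D1:**
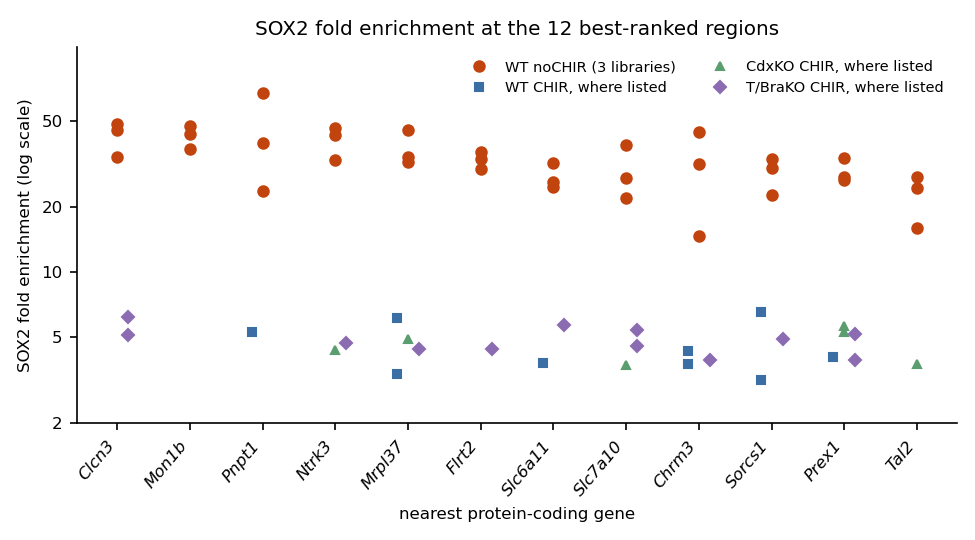
SOX2 fold enrichment (log axis) of the 12 best-ranked regions in the 3 noCHIR libraries and in those CHIR libraries whose full list holds a peak there. Regions are named by the nearest protein-coding gene. Every noCHIR point, from 14.7 upwards, lies above every CHIR point of the same region, an order that the choice of regions largely set.

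Absence from the best 20000 peaks was not absence from the full lists, and the regions were exclusive to noCHIR only at that depth of the ranking. In the full lists 755 of the 890 regions had a peak in at least 1 CHIR library, and 135 (15.2%) had none in any of the 9. A further 206 were listed in 1 CHIR library, 205 in 2, 137 in 3 and 107 in 4, and no region was listed in 8 or 9. The listed CHIR peaks were weak, with a median fold enrichment per library between 4.11 and 5.03. Low values were largely set by the choice, since it left only CHIR peaks past the best 20000. At that cut the fold enrichment was between 4.79 (T/BraKO replicate 3) and 9.75 (WT replicate 1).

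The share of the 890 regions in a full list varied between libraries of the same genotype. It was 28.3%, 26.6% and 25.4% in CdxKO replicates 1, 2 and 3, and 26.6%, 26.2% and 2.7% in T/BraKO. In WT with CHIR it was 45.4%, 17.8% and 25.1%. T/BraKO replicate 3 had the shortest list (26940 peaks) and WT replicate 1 the longest (1008922 peaks), so the length of the list moved with the share at both extremes, and its part in the share was not tested. The kept regions were found in the same lists at 69.5% to 91.4%. By the rule, kept regions were among the best peaks of some CHIR library and the 890 regions were among those of none. This set part of the gap, and how much was not tested.

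**Figure D2:**
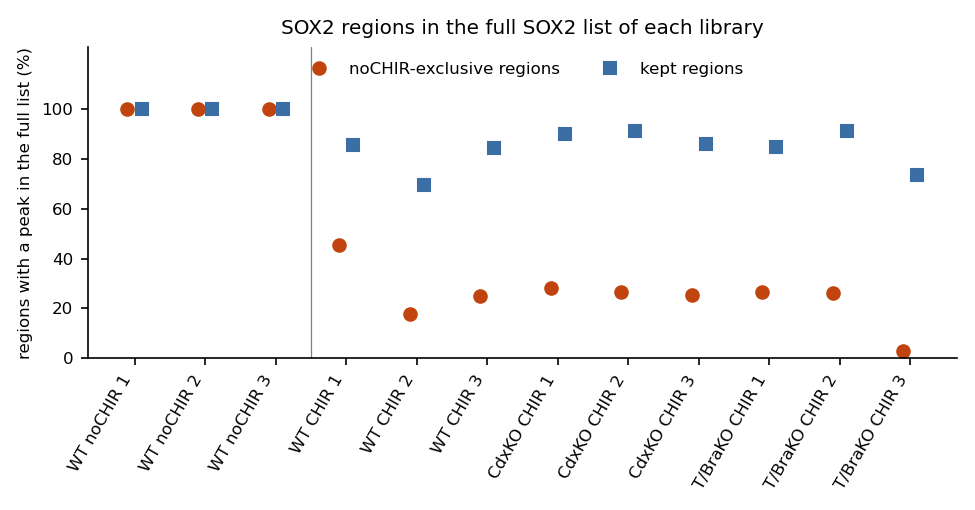
Percent of the 890 regions (circles) and of the 7403 kept regions (squares) that have a peak in the full SOX2 list of each library, noCHIR and CHIR. All noCHIR points are at 100% by the rule. In CHIR the circles lie between 2.7% and 45.4% and the squares between 69.5% and 91.4%. The rule also set part of this gap, since it placed kept regions among the best peaks of some CHIR library and the 890 regions among those of none.

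The edges of the choice were gradual. Among the 890 regions, 100 had a noCHIR rank above 18000 in at least 1 list, and 122 had a best CHIR rank just past the limit, within the first 25000. The region near Nthl1 just entered with a noCHIR rank of 19993, and that near Actl6a with a best CHIR rank of 20016. A region near Utf1, a gene of pluripotent cells, was kept out by a single CHIR peak ranked 19907, and one near Lrp11 by a rank of 20012 in 1 of the 3 noCHIR lists. There were 1929 regions with 2 noCHIR lists and no CHIR list, and in 1266 of them the remaining noCHIR library had a peak of lower rank.

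The 9 CHIR libraries did not contribute equally. Of the 8293 regions in all noCHIR lists, CdxKO replicates 1, 2 and 3 called 63.4%, 70.2% and 59.0% and T/BraKO replicates 52.4%, 67.9% and 62.4%. The WT CHIR libraries called 34.7%, 33.3% and 54.5%, so that WT replicates 1 and 2 stood apart from the other 7. Leaving either of them out raised the number of regions to 924 and 916, the smallest rises among the 9 CHIR libraries. The largest were to 1071 without CdxKO replicate 2 and 1038 without T/BraKO replicate 2.

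The word TAATCC was the 6-letter word whose share differed most between the 890 regions and the kept regions. It was singled out after its values were seen, since the OTX word was picked for this account from a list of motifs and a scan of all 2080 words of 6 letters. Within 100 bp of the summit 268 regions held it, 30.1% (95% Wilson interval 27.2 to 33.2), against 11.4% (10.7 to 12.1) of the kept regions and 8.81% of all joined SOX2 regions. In the same windows moved by 1000 bp the share was 6.40%. These intervals cover the counting of regions only, because regions are not replicates, and no test was made. Words that share most of its letters followed it in the scan, AATCCT with 26.3% against 13.5% in kept regions and GATTAA with 20.3% against 8.94%. At the other end of the scan stood CCGCCC, a word of CpG-rich promoters, with 3.48% against 14.4%.

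The OTX word fell with the number of CHIR lists that held the region up to 5 lists and changed little beyond that. It was present in 30.1% of regions in no CHIR list, 21.3% in 1, 15.9% in 2, 14.7% in 3 and 13.3% in 4 lists. From 5 to 9 lists it lay between 7.30% and 10.2%, and the moved windows lay between 6.38% and 9.0% over all 10 classes. The SOX word showed no such gradient, with shares from 33.3% to 38.2%. The 135 regions without a peak in any full CHIR list, a subset defined by the same SOX2 lists, held the OTX word in 49.6% (41.3 to 58.0), those in 1 to 3 full lists in 28.8% and those in 4 or more in 20.8%.

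**Figure D3:**
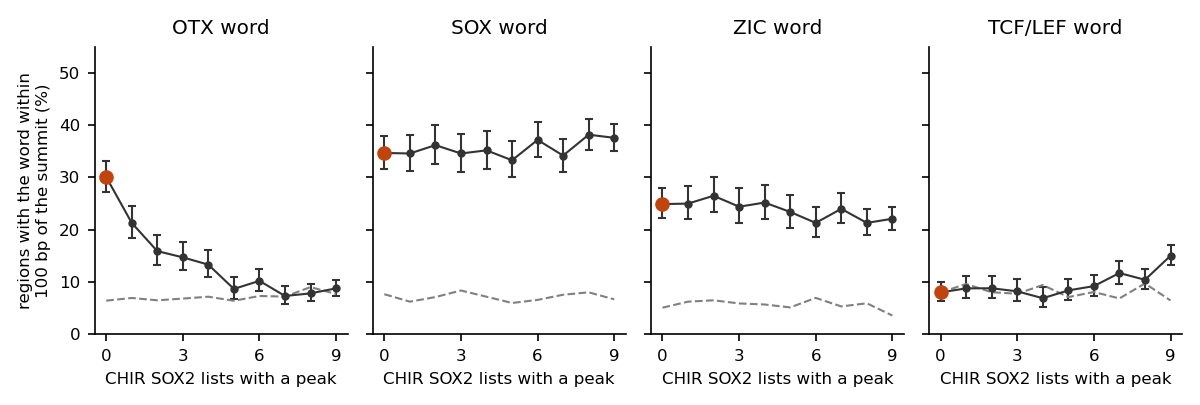
Percent of SOX2 regions called in all 3 noCHIR lists that hold each word within 100 bp of the summit, by the number of the 9 CHIR lists that also hold the region; bars are 95% Wilson intervals. The OTX word falls from 30.1% at 0 lists to 8.76% at 9 lists, while the SOX word stays between 33.3% and 38.2%.

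The gap between the 2 sets was present in each class of peak strength. Among regions of mean noCHIR rank up to 5000 the OTX word was found in 44.0% of the 191 chosen regions and 13.5% of the 3640 kept ones. Between ranks 5000 and 10000 the shares were 30.8% and 9.20%, and above 10000 they were 21.0% and 9.63%. The OTX word was thus most frequent in the strongest of the chosen regions.

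Among the 7403 kept regions, which leave out the 890, those with the OTX word were called less often in each of the 9 CHIR libraries. Of these regions 841 held the OTX word and 6562 did not. In CdxKO replicate 1, 57.4% of the former and 72.7% of the latter were called, and in WT replicate 2, where the gap was smallest, 32.8% and 37.9%. The difference ran from −15.3 to −5.07 percentage points over the libraries. For the SOX word it ran from −1.46 to 3.42 points, and for the TCF/LEF words CTTTGAA and CTTTGAT from 2.88 to 8.85 points. With the 890 regions included, which no CHIR library called by the rule, the OTX difference ran from −23.2 to −9.72 points. The kept regions alone were looked at after the data were seen, the 9 libraries were set against the same noCHIR lists and are therefore not independent of each other in this respect, and no test was made.

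OTX and SOX words lay close to the summit. The median distance of the nearest OTX word from the summit was 30 bp, with 202 of the 268 within 50 bp, and that of the nearest SOX word was 22 bp. In the 20 bp just downstream of the summit there were 7.19 OTX words per 100 regions, and beyond 200 bp from it between 0.787 and 1.35 per 100 regions in each 20 bp. Both words were present in 93 regions, the OTX word alone in 175, the SOX word alone in 216 and neither in 406. The OTX word was as frequent in regions with a SOX word as in those without, at 30.1% in both. At least 2 OTX words were found in 45 regions.

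**Figure D4:**
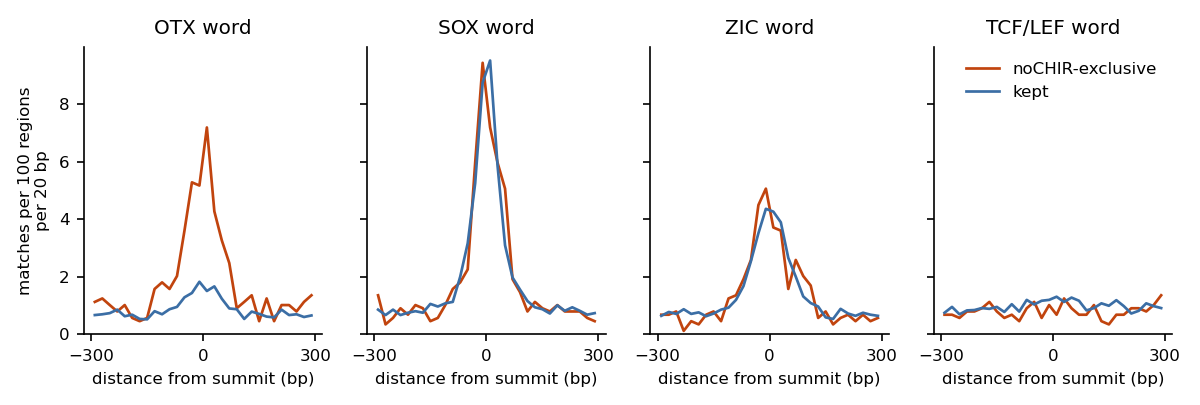
Number of OTX, SOX, ZIC and TCF/LEF words per 100 regions in bins of 20 bp, by distance from the SOX2 summit in bp, for the 890 regions and the kept regions. The OTX word of the 890 regions rises to 7.19 per 100 next to the summit and that of the kept regions stays between 1.5 and 1.82 there.

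The other words set the 890 regions apart less. The SOX words were present in 34.7% of them and 35.9% of kept regions, both far above the 7.64% of the moved windows, so the label of SOX2 sites held for these regions. The ZIC word CCTGCTG was present in 24.9% and 23.4%. The OCT words ATGCAAAT and ATGCTAAT were less frequent in the 890 regions, at 6.74% (5.27 to 8.58) against 10.8% in kept regions and 15.1% in those of all 9 CHIR lists, and the composite SOX-OCT word TTGTNATGC had 2.81% against 6.35% and 9.05%. No OTX, SOX, ZIC or OCT word was found in 257 of the 890 regions (28.9%).

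Words of the WNT-driven factors were no more frequent than in the background. The TCF/LEF words were present in 7.98% of the 890 regions and in 7.98% of their moved windows, against 15% of the regions in all 9 CHIR lists. The CDX words, CAATAAA and TAATAAA together with the variants CCATAAA and TCATAAA, were present in 9.44%, below the 16.5% of the moved windows, and in kept regions the pair of values was 8.21% and 16.8%. The T-box word AGGTGTGA had 0.674%, against 1.12% in the moved windows. The E-box CAGGTG, recognised by ZEB repressors among others, was above its moved windows, at 19.4% against 10.7%, and near the 19.9% of kept regions. The ESRRB/NR5A word TCAAGGTCA was in 0 of 890, which allows a share of up to 0.430%. Over all joined SOX2 regions the shares were 17.1% for SOX, 10.3% for ZIC, 4.27% for OCT, 10.4% for TCF/LEF and 14.2% for CDX.

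The 890 regions lay mostly away from promoters. A summit within 1000 bp of an annotated transcription start site was found in 48 of them (5.39%), against 18% of kept regions, 23.1% of those in all 9 CHIR lists and 14.2% of all joined regions. Introns held 392 (44.0%) and intergenic sequence 433 (48.7%). The median distance to the nearest protein-coding start site was 56179 bp against 27080 bp in kept regions. The median GC content of the windows was 47.3% against 49.8%, and the mean number of CpG dinucleotides was 1.61 against 3.97 per window. Windows that were mostly repeat sequence made up 11.5% and 12.7%. The regions stood alone in most cases, as 39 (4.38%) had another of the 890 within 50000 bp.

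β-catenin in CHIR cells was found at few of these regions. The choice of regions did not use the β-catenin and LEF1 lists, and these were tested over libraries. It did use SOX2 calls with CHIR in the same genotypes, so the comparison with kept regions is not independent of the choice. The 20000 best β-catenin peaks overlapped 3.71%, 3.15% and 3.71% of the 890 regions in WT replicates 1, 2 and 3, 3.26%, 4.94% and 3.48% in CdxKO and 6.18%, 5.62% and 4.83% in T/BraKO. In the kept regions the 9 shares lay between 27.0% and 44.5%, with no overlap between the sets. The mean was 4.32% ± 1.1 (SD, n = 9) at the 890 regions and 36.1% ± 6.41 at kept regions, a difference of −31.8 points that was lower in 9 of 9 libraries (two-sided exact sign-flip permutation test, p = 0.00391, adjusted p = 0.00391 by Benjamini-Hochberg over the 2 factors, the smallest p this test can give). As all 9 differences had the same sign, the test gives this p-value whatever their size or spread.

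The gap was present within each of 3 classes of noCHIR rank and was smaller next to the edge of the choice. Within the 3 classes of noCHIR rank, from strongest to weakest, β-catenin was found on average at 4.65%, 4.04% and 4.46% of the chosen regions and at 45.2%, 28.7% and 24.2% of the kept ones. Strength was not matched within a class, and the kept regions were wider, with a median of 681 bp against 427 bp, where an overlap of 1 bp counted as shared. The part of width in the gap was not tested. Against the 708 regions that had a SOX2 peak in exactly 1 CHIR list, the values were 4.32% ± 1.1 and 8.66% ± 2.88, a difference of −4.34 points (exact sign-flip permutation test, p = 0.00391, adjusted p = 0.00781, in a comparison added after the data were seen). The kept regions were by their choice among the best SOX2 peaks of at least 1 CHIR library, of any of the 3 genotypes, and the 890 regions of none. The labels do not say whether SOX2 and β-catenin libraries came from the same cultures.

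In each of the 9 libraries the share at the 890 regions also lay below that at all joined SOX2 regions, as in WT replicate 1 with 3.71% against 8.33% and in T/BraKO replicate 1 with 6.18% against 9.37%. The gap to kept regions was larger in each library. A β-catenin peak in at least 1 of the 9 libraries was found at 180 of the 890 (20.2%), near the 19.4% of all joined regions, which include many peaks of a single library, whereas the share was 68.3% in kept regions. Peaks in at least 3 libraries were found at 37 of the 890 (4.16%) against 9.2% of all joined regions, and peaks in all 9 at 2 (0.225%) against 2.12%. These 2 were the regions upstream of Snx16, which encodes a sorting nexin, with noCHIR fold enrichments of 9.82, 13.6 and 15.7, and near Map9, which encodes a microtubule-associated protein, with 6.94, 10.9 and 6.08. The Snx16 region also had weak SOX2 peaks in 7 of the 9 full CHIR lists, the best of them ranked 28768, and the Map9 region in 1. Among the 12 best-ranked regions, that near Mrpl37 had β-catenin peaks in 8 libraries, that near Chrm3 in 2 and that near Prex1 in 1, and the other 9 had none.

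Regions with and without β-catenin differed somewhat in their words. The TCF/LEF words were found in 12.2% (8.21 to 17.8) of the 180 regions with a β-catenin peak and in 6.90% (5.26 to 9.01) of the 710 without one. The OCT word was found in 11.7% (7.76 to 17.2) and 5.49% (4.04 to 7.42), the ZIC word in 31.7% and 23.2% and the OTX word in 27.2% and 30.8%. In the 37 regions with peaks in at least 3 libraries the ZIC word was present in 51.4% (35.9 to 66.6). This last value was picked after the shares were seen, and the intervals again cover the counting of regions only.

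The genotypes did not separate by a test. Mean β-catenin shares were 3.52% ± 0.324 in WT, 3.90% ± 0.915 in CdxKO and 5.54% ± 0.677 in T/BraKO (SD, n = 3 each). The 3 T/BraKO values lay above all 3 WT values, but T/BraKO replicate 3 (4.83%) lay below CdxKO replicate 2 (4.94%). Genotype took 71.3% of the sum of squares (exact permutation test over 280 partitions, p = 0.0643, adjusted p = 0.0643). T/BraKO exceeded WT by 2.02 points (exact permutation p = 0.1, the smallest possible for 3 against 3, adjusted p = 0.2 over 4 tests), and CdxKO exceeded WT by 0.375 points (exact permutation p = 0.8, adjusted p = 1.0). This last difference turned to −0.0749 points with the 5000 best peaks, −4.34 with full lists and −0.15 without CdxKO replicate 2. The excess of T/BraKO turned to −0.3 points with full lists. After subtraction of the share of all joined SOX2 regions in the same library, the excess of T/BraKO over WT was 0.437 points.

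Among the best 20000 peaks, LEF1 was found at fewer of the 890 regions than β-catenin. This also held over all joined SOX2 regions, with 1.67% to 2.69% for LEF1 and 6.19% to 9.37% for β-catenin. In the full lists the shares of the 890 regions ran from 6.85% to 29.2% for LEF1 and from 6.4% to 25.6% for β-catenin. The best 20000 LEF1 peaks overlapped 0.787%, 0.787% and 0.899% of the 890 regions in WT, 1.12%, 1.12% and 1.24% in CdxKO and 0.562%, 0.787% and 1.01% in T/BraKO, that is 5 to 11 regions per library. At kept regions the shares lay between 6.43% and 12.3%. The means were 0.924% ± 0.216 and 9.63% ± 2.07 (SD, n = 9), a difference of −8.70 points, lower in 9 of 9 libraries (exact sign-flip permutation test, p = 0.00391, adjusted p = 0.00391). A LEF1 peak in at least 1 library was found at 66 of the 890 regions (7.42%), at 10.6% of all joined regions and at 34.6% of kept regions. The 2 regions with LEF1 in 3 libraries were that of Map9 and one near Irx2, a homeobox gene of the neural plate.

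The LEF1 share differed little between genotypes in absolute terms. The 3 CdxKO values lay above all WT and T/BraKO values, with means of 0.824% ± 0.0649 in WT, 1.16% ± 0.0649 in CdxKO and 0.787% ± 0.225 in T/BraKO (n = 3 each). Genotype took 68.4% of the sum of squares (exact permutation test, p = 0.0571, adjusted p = 0.0643). CdxKO exceeded WT by 0.337 points (exact permutation p = 0.1, adjusted p = 0.2), and T/BraKO differed from WT by −0.0375 points (exact permutation p = 1.0, adjusted p = 1.0). With the share of all joined SOX2 regions subtracted, CdxKO was below WT, at −0.170 points.

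**Figure D5:**
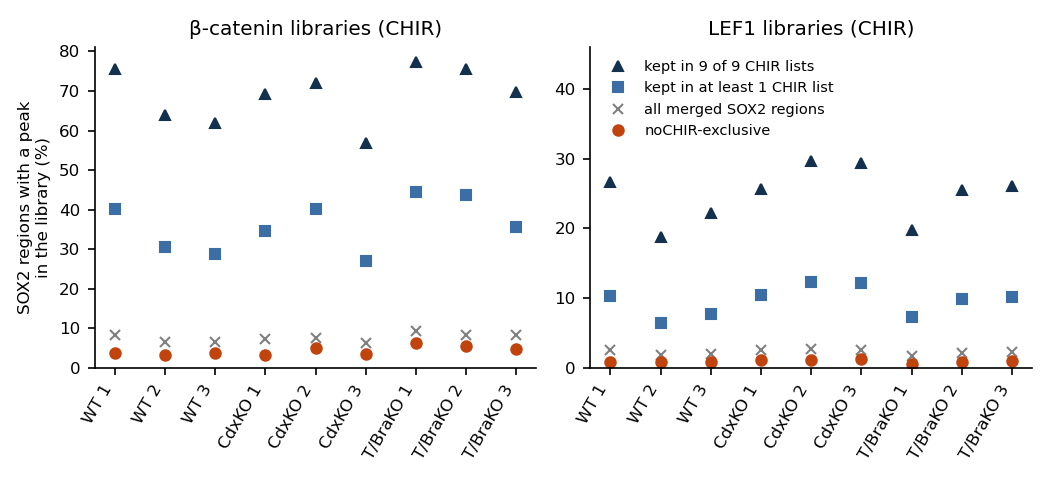
Percent of SOX2 regions with a β-catenin or LEF1 peak among the best 20000, for each CHIR library, in order of genotype. Points show the 890 regions, the kept regions, the regions kept in all 9 CHIR lists and all joined SOX2 regions. The chosen regions lie between 3.15% and 6.18% for β-catenin and between 0.562% and 1.24% for LEF1, and the kept regions lie above them in all 9 libraries of each factor.

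Nearest protein-coding genes were compared with lists of genes of the epiblast, of anterior and posterior tissue and of WNT signalling. In all, 810 of 21827 protein-coding genes (3.71%) were the nearest gene of at least 1 of the 890 regions, and 21.4% were the nearest gene of a kept region. Nearest-gene counts favour genes in gene-poor surroundings, such as developmental regulators and neural adhesion genes, so the number of genes with a region within 100000 bp of a start site, 6.33% over all protein-coding genes, is given as well.

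Of 31 genes of the formative epiblast, 7 (22.6%) were nearest to 8 of the regions, and 27 (87.1%) were nearest to a kept region. Within 100000 bp there were 5 genes (16.1%). Grhl2, which encodes an epithelial transcription factor switched on in the epiblast, had 2 regions, the stronger of them 46705 bp upstream with noCHIR fold enrichments of 15.8, 26.5 and 15.7 and peaks of 3.67 to 6.15 in 5 CHIR libraries. One region lay in an intron of Fgf15, an FGF ligand gene, with 14.5, 14 and 17.5. Sox2 itself had 1 region, 20785 bp downstream of its start site in an intron of Sox2ot (chr3:34671070-34671639), with 9.46, 13.6 and 13.9 in noCHIR and weak peaks in 5 CHIR libraries. Another 6 SOX2 regions nearest to Sox2 were kept. Pou3f1, Foxd3, Sall1 and Cdh2 had 1 region each. Otx2 had none, against 5 kept regions, and Pou5f1, which encodes OCT4, had none against 3.

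Of 25 genes of naive pluripotency, 3 (12%) were nearest to 4 regions, and 5 genes (20.0%) had a region within 100000 bp. For kept regions the nearest-gene count was 17 (68.0%). Lifr had 2, both with the OTX word. The stronger one had noCHIR values of 22.2, 17.8 and 10.7 and CHIR values of at most 4.55, and the weaker one had 8.65, 10.4 and 14.3 and no peak in any full CHIR list. Tbx3, a T-box gene, had 1 region with 16.3, 30.0 and 12.9, and Gbx2, a homeobox gene, had 1 with 9.20, 8.78 and 8.33. The Gbx2 region was the least distinct of them, with peaks in 6 full CHIR lists of which the highest, in WT replicate 1, reached 9.27.

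Of 32 anterior neural genes, 5 (15.6%) were nearest to 6 regions, and 26 (81.2%) were nearest to a kept region. Within 100000 bp, 2 (6.25%), Hesx1 and Six6, had one, near the 6.33% of all protein-coding genes. The Hesx1 region lay 5656 bp downstream of its start site (chr14:27005802-27006394), with 16.6, 21.8 and 9.95 in noCHIR and no peak of any rank in CHIR. It was accompanied by 1 kept region. The regions nearest to Nr2f1 and Nr2f2, genes of orphan nuclear receptors, and to Lhx5 and Pou3f3 lay at least 143209 bp from the start site. That nearest to Nr2f1 had 13.1, 19.7 and 16.8 in noCHIR and was in no full CHIR list, whereas that nearest to Pou3f3 had a WT CHIR peak of 6.52 beside noCHIR values of 7.35, 9.28 and 10.3. Of the 6 regions, 3 held the OTX word and none had a β-catenin peak.

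Of 32 genes of the midbrain, hindbrain and spinal cord, 9 (28.1%) were nearest to 10 regions and 7 (21.9%) had one within 100000 bp. For kept regions the nearest-gene count was 29 (90.6%). Sox11, which encodes a SOX factor of early neurons, had a region with 28.2, 13 and 9.32 in noCHIR and none in CHIR. In an intron of Pax3, a paired-box gene of the dorsal neural tube, the values were 13.5, 15.7 and 13.2, with a single CHIR peak of 4.22. Lmx1b, Nkx6-1 and Nkx6-2, homeobox genes of the hindbrain and ventral neural tube, had 1 region each. Over these 3 the noCHIR values ran from 8.65 to 20.6 and the CHIR values from 2.67 to 5.66.

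Genes of the caudal epiblast and of WNT feedback had few of the regions. Of 38 caudal epiblast and primitive streak genes, 1 (2.63%) was a nearest gene, Meis1, with noCHIR values of 8.26, 8.89 and 9.89 at 270385 bp from its start site, and 18 (47.4%) were nearest to a kept region. None of 24 WNT feedback targets was a nearest gene, while 15 (62.5%) were nearest to 42 kept regions. Within 100000 bp, Tcf7, Rnf43 and Ccnd1 had one (12.5%). T had 0 regions and 3 kept ones, Axin2 0 and 1, Sp5 0 and 2, and Lef1 0 and 6. At a background of 3.71% these lists are too short for a count of 0 or 1 to stand apart.

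Of 51 genes of axon guidance and neural adhesion, 18 (35.3%) were nearest to 19 regions, but 4 (7.84%) had a region within 100000 bp, close to the 6.33% of all protein-coding genes. The median distance of these 19 regions from the start site was 306720 bp. The strongest was that of Epha7, an ephrin receptor gene, with 12, 39.3 and 7.01 in noCHIR and a CHIR peak of 7.72 in WT replicate 1, which exceeded noCHIR replicate 3. In an intron of Tenm2, a teneurin gene, the values were 12.2, 24.9 and 12 with a CHIR peak of 7.49 in the same WT library. The stronger of 2 regions of Lsamp, a limbic adhesion gene, had 14.3, 21.3 and 14.5 and was absent from all full CHIR lists. Dscam and Epha5 had 1 region each, with noCHIR values from 7.77 to 31.5.

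A few genes were nearest to several of the regions. Tal2, which encodes a basic helix-loop-helix factor of the midbrain, was nearest to 4. Their noCHIR fold enrichments ran from 6.23 to 27.7, and 1 of the 4 was absent from all full CHIR lists while another had peaks in 6 of them. In this last region the CHIR peak of WT replicate 1, at 7.56, exceeded the 7.08 of noCHIR replicate 2, where replicates 1 and 3 had 12 and 9.81. Fam135b, Sdk1, Snx19, Rbfox1 and Sgcd had 3 regions each, as had Mast4 and Phactr1. At Rbfox1, a splicing regulator gene, all 3 were intronic, with noCHIR values from 7.72 to 16.8, and 2 of them had no CHIR peak. At Sgcd, a sarcoglycan gene, the 3 intronic regions had values from 6.75 to 14.2 in noCHIR and from 3.14 to 5.26 in CHIR.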

How the data were processed

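ChIP–seq peak lists of 30 libraries were used. Per the paper, the authors processed the reads with the nf-core chipseq pipeline, in which BWA aligned the trimmed reads to mm10 and MACS2 called narrow peaks after filtering, which gave 1 list per library. The deposited ratio is the fold enrichment at the summit over the local background. For that summit the authors' caller also gave −log10 p and −log10 q, as deposited. The deposited score is a rounded form of −log10 q and was left aside. Which input was set against which list is not given in the sources used here. As the lists hold no read totals, depth is unknown and no value carries a counting interval over reads.

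Peaks on chromosomes 1 to 19, X and Y were ordered by −log10 q, with ties broken by −log10 p and fold enrichment. Regions and lists of genes and motifs were chosen with earlier results of these data known. The SOX, TCF/LEF, CDX and T-box words belonged to the plan, and the others were added later. Words were counted within 100 bp of the summit in GRCm38.p6, genes came from the basic GENCODE M21 annotation, and a kept region was one with peaks in all 3 noCHIR lists and at least 1 CHIR list. Named regions were the 12 of lowest mean rank, up to 5 per gene list, those with β-catenin in the most libraries and up to 6 genes with the most regions. β-catenin and LEF1 were tested with two-sided exact permutation tests over libraries with Benjamini-Hochberg adjustment and a threshold of 0.05, after tests on simulated data. Same-numbered libraries did not deviate together (r from −0.03 to 0.113 for β-catenin). Python 3.11.15, NumPy 2.4.6, pandas 2.3.3, SciPy 1.17.1, pysam 0.24.0 and matplotlib 3.10.9 were used.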

Additional observations from a re-analysis of the deposited data

How the results depend on the processing

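The number of regions was 601 with the 10000 best peaks, 807 with the full lists, 792 with ranking by fold enrichment and 925 with summit windows. Leaving out 1 SOX2 library in turn gave 916 to 1873 regions. The highest numbers came without a noCHIR library, at 1390, 1369 and 1873 without replicates 1, 2 and 3, where fewer lists had to hold the region. For these altered sets, chosen after seeing the data, the OTX share was 33.8% with the 10000 best peaks, 33.2% with full lists and 24.5% to 30.2% when 1 library was left out. Within 50 bp and 250 bp of the summit the share was 21.7% and 38.0% for OTX (7.24% and 19.7% in kept regions), 28.7% and 42.6% for SOX, 17.0% and 31.5% for ZIC, 4.27% and 18% for TCF/LEF and 4.16% and 10.6% for OCT, as a narrower or wider window holds fewer or more words.

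By distance within 100000 bp in place of the nearest gene, the genes with a region numbered 5 for naive pluripotency, 2 for anterior neural, 2 for caudal epiblast and primitive streak, 3 for WNT feedback and 4 for axon guidance. The lower shares of β-catenin and LEF1 at the 890 regions than at kept regions held in all 17 alternatives of each. When 1 library was left out the difference ran from −32.8 to −31.0 points for β-catenin and from −9.09 to −8.39 for LEF1. Without promoters (added after seeing the data) it was −32.8 and −9.0 points.

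Differences between genotypes were not stable, and the causes were not tested. CdxKO minus WT for β-catenin turned to −0.0749 points with the 5000 best peaks and −4.34 with full lists, and ran from −0.15 (without CdxKO replicate 2) to 0.693 when 1 library was left out. T/BraKO minus WT for β-catenin was −0.3 with full lists and 1.7 to 2.38 when 1 library was left out. For LEF1, T/BraKO minus WT was 4.42 with full lists, 0.0599 after subtraction of all joined regions and −0.15 to 0.0749 (highest without T/BraKO replicate 1) when 1 library was left out. CdxKO minus WT for LEF1 was −0.17 after that subtraction, 0.0 with the 5000 best peaks, 4.27 with full lists and 0.3 to 0.375 when 1 library was left out. When 1 library was left out, the sum of squares taken by genotype ran from 62.5% to 87.6% for β-catenin and from 58.5% to 88.5% for LEF1. It was 65.3% and 6.9% for the 2 factors with the 5000 best peaks, 10.2% and 8.95% with full lists and 11.9% and 21.5% after subtraction of all joined regions. With an overlap of more than 10% it was 69.2% and 75.2%. Without β-catenin CdxKO replicate 2 it was 87.6% (exact permutation p = 0.025, adjusted p = 0.05), and without LEF1 T/BraKO replicate 3 it was 88.5% (exact permutation p = 0.0107, adjusted p = 0.0214). With the replicate block, the exact permutation p for genotype was 0.111 for each factor, at 71.3% and 68.4% of the sum of squares. Read depth is not in the lists and limits every statement on absence.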

Other observations

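Chromosome X held 42 of the 890 regions, 18.7% of its 225 regions in all noCHIR lists, against 7.21% (chromosome 11) to 14.2% (chromosome 16) on the autosomes. X gave 2.32%, 2.10% and 2.42% of the 20000 best SOX2 peaks in noCHIR replicates 1, 2 and 3 and 1.09% to 2.08% in the 9 CHIR libraries. The 2 conditions did not overlap, but by a narrow margin, with 419 X peaks in noCHIR replicate 2 and 415 in WT CHIR replicate 1. In each of the 9 CHIR libraries a smaller share of the X regions than of the autosomal regions in all noCHIR lists was called, for example 24.9% and 33.5% in WT replicate 2 and 61.3% and 70.4% in CdxKO replicate 2. The 42 regions on X held the OTX word in 28.6% (17.2 to 43.6) and the SOX word in 35.7% (23.0 to 50.8). This chromosome was picked after its values were seen, the values come from the SOX2 calls that chose the regions, and no test was made. The line is XY, and the copy number of X in these cultures was not measured here.

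The 15 regions with β-catenin in at least 5 libraries included those nearest to Elmo1, which encodes a regulator of cell migration, with 7 libraries, Gsn, the gelsolin gene, with 7, Atp2b4, a calcium pump gene, with 8, and Onecut1, a homeobox gene, with 5. The 15 made up 1.69% of the 890, against 6.16% of all joined SOX2 regions.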
